A study of Bos taurus with 52 samples.

Results

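The short and the long conceptuses recovered from high-fertile (HF) heifers on day 17 of pregnancy were compared. The submitters' size label put 7 of the 17 HF conceptuses in the Short class and 10 in the Long class, of 27 conceptus libraries and 52 libraries in all. The series asks how the uterus of fertility-classified heifers bears on conceptus growth. The other libraries came from endometrium and from 10 conceptuses of subfertile (SF) recipients, of which the SF conceptuses entered the fits to help estimate the spread and the sheet term explained below. All groups used were bovine, carried no genetic change or drug treatment that the labels name, and were labelled as conceptus with no dissection described. The labels do not give the length that divides Short from Long. The labels name the animals as heifers and give no breed beyond that and no age.

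Both size classes came from pregnant HF recipients. Where a title gave a length, the short conceptuses measured 1.2 to 6.9 cm (6 of 7) and the long ones 9 to 17 cm (5 of 10). The 7 short conceptuses came from 6 recipients and the 10 long ones from 10, so that 12 recipients supplied all 17. Recipients 825, 894, 971 and 985 each gave 1 short and 1 long conceptus, and recipient 753 gave 2 short ones, of 1.2 and 1.5 cm. Conceptuses are called Short 1 to 7 and Long 1 to 10 below, by class and replicate number. These numbers name libraries and pair nothing; the pairs are those of the recipients.

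In cattle the hatched blastocyst becomes a filament in the days before attachment, mainly by proliferation and remodelling of the trophectoderm, the outer epithelium that will form the placenta. Trophectoderm secretes interferon tau, which keeps the corpus luteum alive, together with pregnancy-associated glycoproteins (PAGs), trophoblast Kunitz domain proteins (TKDPs) and prostaglandins. Inside it lie the hypoblast, an endoderm-like layer that makes apolipoproteins and basement membrane, and the small embryonic disc, which derives from the epiblast.

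Some libraries stood apart before any comparison of the classes. Total counts, in units of 1e6 reads, were 27.1 to 39.5 in Short and 22.9 to 39.8 in Long. The 3 measures of depth and complexity leaned by class (two-sided exact permutation tests, 7 against 10 libraries, adjusted over 4 measures): the mean of Short was higher in reads (35.3 ± 4.46 SD against 29.6 ± 5.03, adjusted p = 0.058) and in genes detected (20890 against 20150, adjusted p = 0.058), and lower in the share of reads in the 10 most abundant genes (15.1% against 16.8%, adjusted p = 0.058). None passed the threshold of 0.05, and in sheet 1 alone, as defined below, the adjusted p-values were 0.49 to 0.79 (exact permutation, 3 against 10). These permutations treated conceptuses of the same recipient as independent. The difference in the share of the 10 most abundant genes, -1.70 percentage points over all HF libraries, was -0.257 in sheet 1. Long 8 and Long 9 had the largest share of RN7SL1 and RMRP, 2 short non-coding RNAs (8.55% and 6.52%, other HF libraries 1.497% to 5.12%). In Long 1 and Long 9 both XIST, the transcript of the inactive X chromosome (57.7 and 56.1 CPM, read counts scaled to library size), and Y-linked genes (75.1 and 115 CPM summed) were read, while the other HF libraries had 1 of these at a high level. Of the Short libraries 4 of 7 held Y-linked transcripts, and of the Long libraries 4 of 10, Long 1 and 9 among them. Whether these 2 libraries hold RNA of more than 1 conceptus was not tested, so their values may not be those of a single conceptus.

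The sample numbers in the descriptions fall into 2 series, called sheets here and matched to titles by animal and length. All 10 Long and 3 Short libraries carried numbers of sheet 1, and Short 4 to 7, the 4 shortest of the 6 measured short conceptuses, carried numbers of sheet 2. The labels do not say what a sheet stands for. On the record of 22 conceptuses the description gave a different animal or length from the title, and 12 of these would change group if the description were right. Titles and size labels were followed, and grouping by description also gave 0 called genes. Between sheets, with class held fixed, 817 of 16330 genes were called (5.0%), 321 higher and 496 lower on sheet 2, at an adjusted p under 0.05 by edgeR's quasi-likelihood test. The size comparison was therefore fitted with a sheet term, again without it, and again in sheet 1 alone (3 Short against 10 Long). Sheet and length were partly tied within the classes, as the shortest measured conceptuses of Short and of SF were on sheet 2. The calls between sheets may thus include differences that go with length, and the sheet term can take up part of a size difference. How large that part is was not tested.

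No gene was called between short and long conceptuses in any of these 3 fits. With the sheet term 0 of 16330 genes passed (0.0%), the lowest adjusted p was 0.933 and 599 genes had an unadjusted p under 0.05. Without the term 0 genes passed (0.0%), the lowest adjusted p was 0.339 and 1247 genes were under that unadjusted value. In sheet 1 alone 0 of 16167 genes passed (0.0%), with 648 under it. If no gene differed, 816.5 genes would fall under that value by chance in each of the first 2 fits and 808.4 in sheet 1. The counts with the term and in sheet 1 alone lay below these numbers, and the count without the term lay above. DESeq2 called 2 genes with the term (0 higher and 2 lower in Short), 24 without it (8 higher and 16 lower) and 1 lower in sheet 1. limma-voom called 0 in each fit. All fold changes below are Short minus Long on the log2 scale, from the fit with the sheet term unless the text says otherwise, with standard errors (SE).

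The absence of calls left a bounded range for most abundant genes. Of 10133 genes whose mean reached 5 CPM in either class, 8815 (87.0%) had a 95% interval that lay within a 2-fold change in either direction. Their median SE was 0.18. Estimates of 2-fold or more were found for 171 of these genes (1.69%). The median fold change of all 16330 genes was 0.03. The fit behind these intervals treated conceptuses of the same recipient as independent, so the intervals leave out their shared recipient. It also held sheet fixed, so the intervals do not cover any size difference that the sheet term took up.

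The secreted products of the trophoblast come first because they define the conceptus at this stage. IFNT2, an interferon tau gene, stood at 868, 1503, 5622, 7963, 10253, 11196 and 14622 CPM in the 7 short conceptuses and between 6323 and 13183 CPM in the long ones (median 8157). The 2 low values were those of Short 4 and Short 5, the conceptuses of recipient 753, and the other 5 short conceptuses spanned the range of the long ones or lay close to it. The fold change was -0.07 ± 0.45 (adjusted p = 0.99), with an interval from -0.99 to 0.84. A second interferon tau entry, IFN-TAU, was near 1 CPM in both classes (medians 1.26 and 1.02 CPM). IFNAR1, a subunit of the interferon receptor, had medians of 24.7 and 25.9 CPM. Of the 3 tested genes of interferon tau and its receptor, 0 were called and the median fold change was 0.04. Reads of near-identical copies of the interferon tau, PAG and TKDP genes may have been divided between them by the counting.

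TKDP1, the most abundant Kunitz protein of the trophoblast, was at 2812, 9143, 22940, 25375, 29208, 34016 and 43521 CPM in Short and at 29552 to 44813 CPM in Long (median 39493). Long libraries lay in a narrow band, and 5 of the 7 short libraries fell below it. Its fold change was -0.24 ± 0.34 with the sheet term and -0.67 ± 0.35 without it (adjusted p = 0.94 and 0.65). In each of the 4 recipients with both sizes TKDP1 was lower in the short conceptus, by 0.22 to 0.81 on the log2(CPM + 1) scale. TKDP4 ranged from 201 to 11643 CPM in Short and from 458 to 23577 CPM in Long (-0.31 ± 1.17), and TKDP2 from 2.64 to 27.9 CPM and from 3.35 to 1055 CPM (-3.50 ± 1.48). TKDP2 was chosen after its values were seen. The high values of TKDP2 were in Long 6, 8 and 9, and all 3 TKDP genes were uncalled with negative estimates.

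Among the 20 PAG genes that were counted, 6 could be tested, 0 were called and 1 had a positive estimate. Without Short 2, 3 of 6 were positive and the median went from -0.17 to -0.08, and it was -0.82 with recipients as blocks. The block fit, here and below, held only the 17 HF libraries and had no sheet term. In recipients 971 and 985 the mates lay on different sheets, so size and sheet cannot be told apart within them. PAG11, the most abundant, had a median of 8951 CPM in Short (2338 to 16488) and 10414 CPM in Long (1938 to 18744), a fold change of 0.16 ± 0.50. PAG2 was at 277, 372, 767, 1220, 2154, 3154 and 3161 CPM in Short and at 902 to 4482 CPM in Long (median 2376), with a fold change of -0.17 ± 0.48 and an interval from -1.16 to 0.83. In all 4 recipients with both sizes PAG2 was lower in the short conceptus, by 0.50 to 2.08 on the log2(CPM + 1) scale. PAG12, chosen after its values were seen, was also lower in the short conceptus of all 4 recipients. However, it ranged from 5.34 to 650 CPM in Short and from 11.8 to 1249 CPM in Long. These signs over 4 recipients, here and below, are given as values, with no test and no share over all genes beside them. PAG11 and TKDP4 were each higher in the short conceptus of 2 of these recipients and lower in 2.

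**Figure D1:**
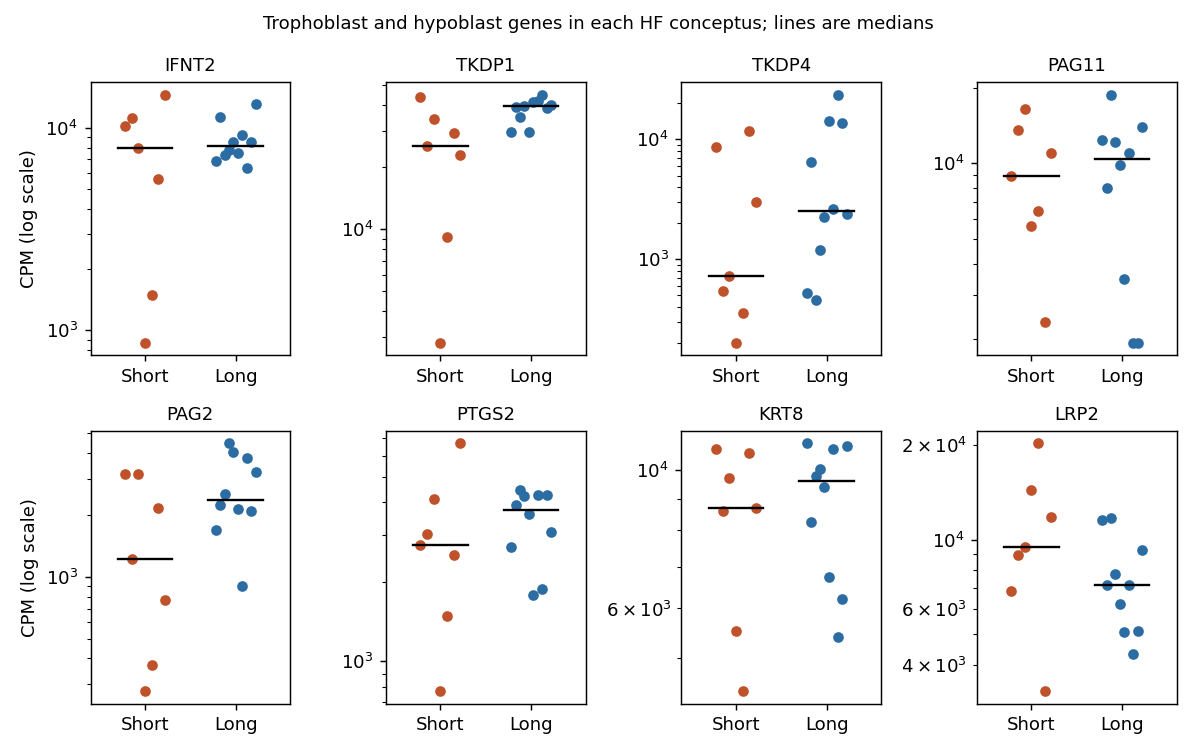
Expression (CPM, log scale) of 8 genes in each of the 7 short and 10 long HF conceptuses, 1 dot per library, with lines at the medians. Dots of the classes overlap for every gene shown, and the lowest IFNT2 and TKDP1 dots are the 2 short conceptuses of recipient 753.

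Prostaglandin genes showed the same overlap. PTGS2, the inducible cyclooxygenase that makes prostaglandin precursors, had a median of 2754 CPM in Short (771 to 6692) and 3750 CPM in Long (1782 to 4451), a fold change of -0.09 ± 0.40. AKR1B1, a prostaglandin F synthase, had medians of 1501 and 2856 CPM (-0.28 ± 0.42). HPGD, which breaks prostaglandins down, was the prostaglandin gene with the largest estimate: it was at 1.36 to 11.9 CPM in Short (median 3.24) and 0.264 to 2.54 CPM in Long, a fold change of 1.63 ± 0.52 (adjusted p = 0.93), and was higher in the short conceptus of all 4 mixed recipients. HPGD was singled out after its values were seen. Of 17 tested prostaglandin genes 0 were called and 11 had positive estimates (median 0.07), which became 7 of 17 without Short 2 (median -0.06). PPARG, a nuclear receptor activated by lipids and studied as a regulator of elongation, was at 2.09 to 4.90 CPM in Short and 3.44 to 7.79 CPM in Long (-0.44 ± 0.32).

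Steroid and hormone genes had 12 tested members and 0 calls, with a median of -0.05 that became 0.07 without Short 2. CYP19A1, the aromatase that makes estrogens, was at 2.18, 2.88, 27.7, 36.2, 37.8, 45.7 and 52.3 CPM in Short and at 28.7 to 166 CPM in Long (median 115). The highest short value lay below 7 of the 10 long ones, and the fold change was -1.29 ± 0.77 with the sheet term and -1.79 ± 0.67 without it. It was chosen after its values were seen. CGA, the shared subunit of pituitary-type glycoprotein hormones, did not exceed 3.74 CPM in any HF library.

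No trophectoderm identity gene was called between the classes. KRT8 and KRT18, keratins of simple epithelium, had medians of 8708 and 10373 CPM in Short and 9598 and 11947 CPM in Long (0.07 ± 0.22 and 0.23 ± 0.28). CDX2, a trophectoderm transcription factor, was at 11.1 to 22.99 CPM in Short and 10.96 to 18.6 CPM in Long (0.22 ± 0.21). HAND1, a factor of trophoblast and mesoderm, varied widely within each class, from 5.08 to 202 CPM in Short and from 2.41 to 173 CPM in Long. Of 27 tested trophectoderm genes 13 had positive and 14 negative estimates, and 13 had an interval within a 2-fold change. In sheet 1 alone 19 of 27 were negative (median -0.23).

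Hypoblast and visceral endoderm genes leaned lower in short conceptuses. Of 35 tested genes 0 were called, 28 had negative estimates and the median was -0.45, against 0.03 for all genes. LRP2, an endocytic receptor of this layer and of trophoblast, went the other way (0.42 ± 0.30), with medians of 9441 CPM in Short and 7166 CPM in Long. APOA1, an apolipoprotein, had medians of 723 and 1360 CPM (-0.27 ± 0.31). HNF4A, a factor of visceral endoderm, was at 12.9 to 30.2 CPM in Short and 21.99 to 34.0 CPM in Long (-0.47 ± 0.19). SOX17 (0.35 ± 0.39), GATA4 (-0.58 ± 0.33) and GATA6 (-0.48 ± 0.20), factors of early endoderm, were uncalled. Without the sheet term GATA4 was at -0.13 ± 0.31 and GATA6 at 0.01 ± 0.22. AFP, a yolk sac product, exceeded 1 CPM in Long 2, 3, 8 and 9 only, at 1.49 to 34.6 CPM. HNF4A and AFP were chosen after their values were seen. The list median was -0.14 with recipients as blocks (24 of 32 negative), -0.27 without Long 8 and 9, and -0.16 with 13 of 36 estimates positive when Short 4 and 5 were left out as well. The part of these 4 libraries in the lean was not tested further.

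The core pluripotency factors of the epiblast were read at low levels in both classes. POU5F1, a pluripotency factor, was at 0.166 to 6.39 CPM in Short (median 3.26) and 0.269 to 4.88 CPM in Long (median 1.03), a fold change of 0.95 ± 0.73 with an interval from -0.56 to 2.46. NANOG stayed under 1.5 CPM in every HF library, and SOX2 and T, the mesoderm factor brachyury, were too low to test. ZFP42, a zinc finger factor of early embryos, and DNMT3B, a DNA methyltransferase, had the highest levels of the list (0.32 ± 0.17 and -0.30 ± 0.17), and ZFP42 was higher in the short conceptus of all 4 mixed recipients. In bulk libraries fewer cells of a type and less RNA per cell cannot be told apart. Of 12 tested epiblast genes 9 had positive estimates and of 12 mesoderm genes 4, with 0 called in either list. With recipients as blocks the epiblast median went from 0.32 to 0.09, and 7 of 9 mesoderm estimates were positive (median 0.09). Without Long 8 and 9, 7 of 11 mesoderm estimates were positive (median 0.08). The mesoderm list was led by TBX3 (-0.33 ± 0.31) and BMP2 (-0.61 ± 0.56), both also made by extraembryonic tissue.

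Cholesterol synthesis was the metabolic list with the most one-sided estimates. Of 33 tested genes 25 had negative estimates, the median was -0.30 and 0 were called. HMGCS1, which makes the HMG-CoA of the mevalonate pathway, was at 319 to 1036 CPM in Short (median 439) and 361 to 1511 CPM in Long (median 777), a fold change of -0.92 ± 0.35 (adjusted p = 0.93). SQLE (-0.86 ± 0.29) and CYP51A1 (-0.89 ± 0.38), enzymes of the same route, were named after their values were seen. In the 4 mixed recipients HMGCS1 and SQLE were each lower in the short conceptus of 2 and higher in 2. CYP51A1 was lower in 3 and higher in 1. Short 7 was the exception among short conceptuses: its HMGCS1 was 1036 CPM, against 319 to 487 CPM in the other 6. ABCA1, which exports cholesterol, leaned the other way, at 471 to 1360 CPM in Short and 436 to 860 CPM in Long (0.55 ± 0.24). The list median was -0.19 with recipients as blocks, with 28 of 33 estimates negative, and -0.56 without Short 2, with 26 of 33 negative. It was -0.24 without Long 8 and 9 and -0.25 without Short 4 and 5. Without these 4 libraries together it was -0.18, with 10 of 33 positive.

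Other metabolic and growth lists had medians between -0.17 and 0.14 in the fit with the sheet term, several of which changed sign in other fits. The 51 lipid genes had a median of -0.04, with SCD, a fatty acid desaturase (-0.06 ± 0.28), and ACSL3, which activates fatty acids (0.22 ± 0.34), as the most abundant. The 29 glucose genes had a median of 0.05, led by GAPDH (0.01 ± 0.23) and the glucose transporter SLC2A3 (-0.35 ± 0.22). The 37 cell cycle genes had a median of 0.02 and 31 of them had an interval within a 2-fold change. TOP2A, a topoisomerase of dividing cells, was at 386 to 571 CPM in Short and 422 to 626 CPM in Long (-0.12 ± 0.13) and lower in the short conceptus of all 4 mixed recipients, while RRM2, which makes deoxyribonucleotides, was higher in all 4 (0.26 ± 0.15). The 25 genes of endoplasmic reticulum stress had a median of 0.01, and 36 adhesion genes a median of 0.04, with FN1, fibronectin (-0.54 ± 0.29), and ITGB1, an integrin subunit (-0.05 ± 0.14), as the most abundant. Amino acid transporters (29 tested) had a median of -0.10, cathepsins and lysosomal genes (17) 0.14, growth factors (48) -0.06 and genes of hypoxia, p53 and redox control (37) 0.01. Imprinted genes (20) had a median of -0.17, and H19, a growth-restraining non-coding RNA, was at 0.458 to 8.33 CPM in Short and 2.29 to 41.6 CPM in Long (-1.26 ± 1.11). Without Short 2 the medians were -0.26 for adhesion (10 of 36 positive), -0.77 for imprinted genes and -0.19 for growth factors, and those of cathepsins and of hypoxia genes became negative (-0.05 and -0.01). Without Long 8 and 9 the imprinted and growth factor medians were 0.07 each. Without the sheet term the median was 0.11 for amino acid transporters (20 of 29 positive), -0.09 for glucose genes (9 of 29 positive) and -0.18 for endoplasmic reticulum stress (4 of 25 positive).

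**Figure D2:**
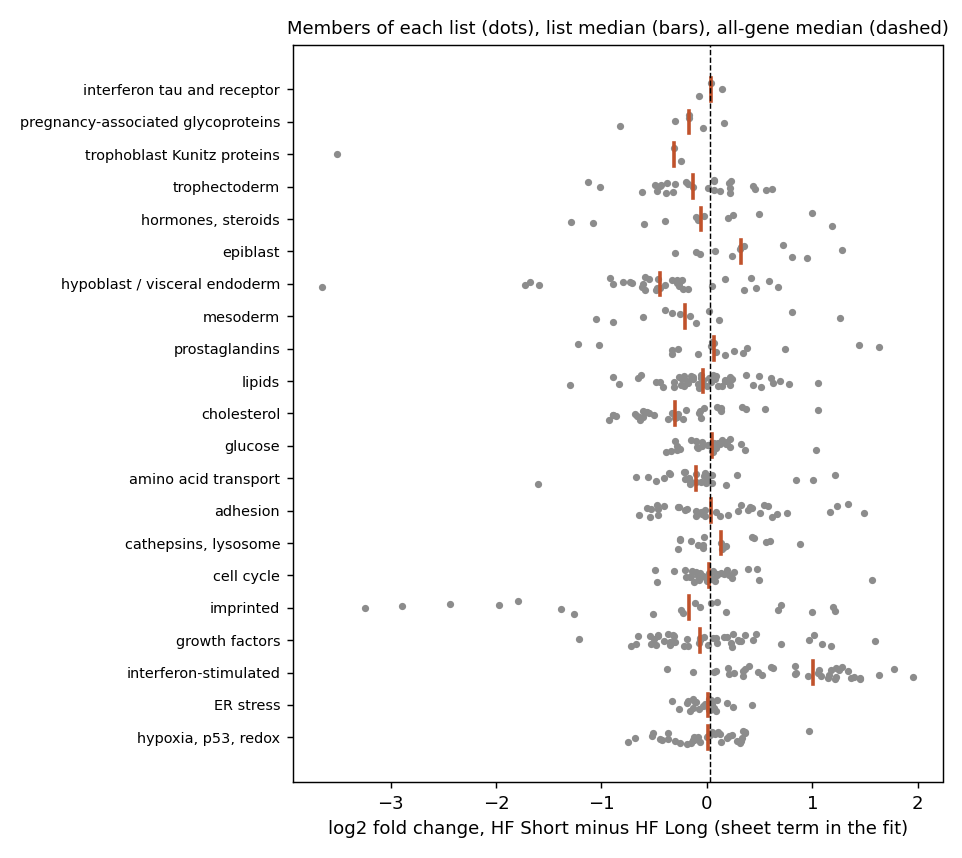
Log2 fold change (Short minus Long, fit with the sheet term) of each tested member of 21 gene lists, 1 dot per gene, with a bar at the list median and a dashed line at the median of all genes. Interferon-stimulated genes lie to the right of the other lists (median 1.0), and 0 of the genes plotted passed the adjusted threshold.

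Interferon-stimulated genes, which interferon tau switches on in the endometrium, had the largest list median of the 21 lists plotted, and its sign depended on 1 library. Of 38 tested genes 36 had positive estimates and the median was 1.0, with 0 called. ISG15 was at 15.1 CPM in Short 2 and at 0.292 to 0.946 CPM in the other 6 short conceptuses. MX1, an antiviral effector, was at 85.8 CPM in Short 2 and at most 5.80 CPM in the other short conceptuses, with 42.3 CPM in Long 3 and at most 10.0 CPM in the other long ones. ISG15 and MX1 were chosen after their values were seen. Short 2 and Long 3 shared the uterus of recipient 825. Without Short 2 the list turned over: 6 of 38 estimates were positive and the median was -0.67. Without both conceptuses of that recipient 12 of 38 were positive and the median was -0.22. The most abundant member, B2M, the light chain of MHC class I (0.40 ± 0.31), was not highest in Short 2 (78.0 CPM, other short conceptuses 61.6 to 158). With recipients as blocks 28 of 36 estimates were positive and the median was 0.30, and by limma-voom 24 of 38 were and the median was 0.26.

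Endometrial transcripts moved with the interferon-stimulated genes in these 2 libraries. The uterine list had 17 tested genes, 0 called, and a median fold change of -0.63 with 7 positive estimates. That median was -0.23 without the sheet term, -1.54 with 2 of 17 positive without Short 2, and 0.03 with 8 of 15 positive with recipients as blocks. The summed level of its 25 transcripts was 178 CPM in Short 2 and 113 CPM in Long 3, against 17.4 to 75.6 CPM in the other short and 29.4 to 86.6 CPM in the other long conceptuses. MUC16, a mucin of the uterine surface, made up most of it, at 127 and 60.1 CPM. The stromal marker DCN did not exceed 2.99 CPM by total count in any HF library, against a median of 2390 CPM in the endometrium of 5 pregnant HF heifers. Other markers reached higher values: COL1A2 was at up to 23.6 CPM in Long and COL1A1 at up to 18.3 CPM, against 1090 and 567 CPM in that endometrium. ACTG2 reached 32.3 CPM in Short, above its endometrial median of 4.63 CPM. PAEP was at 0 in every HF conceptus library, with a median of 0 in that endometrium. A search made after these values were seen found 138 of 16330 tested genes that were at 5 CPM or more in both conceptuses of recipient 825 and at least 2-fold above every other HF library. The same search found 35 genes for recipient 753, 10 for 971 and 1 each for 894 and 985. The ratio of Short 2 to Long 3 over these 138 genes had a median of 1.96 and quartiles of 1.79 and 2.10. Of the 138 genes, 137 were at 5 CPM or more in the pregnant HF endometrium, as were 18 of the 35 genes of recipient 753 and 74.3% of all tested genes. The 138 and the 35 genes also had to reach 5 CPM in conceptuses, which the 74.3% did not require, so these sets are unlike. GRP, gastrin-releasing peptide, a secretion of uterine glands, led with 674 and 353 CPM, at most 35.8 CPM elsewhere in HF conceptuses and 2020 CPM in that endometrium. EMB (621 and 289 CPM), LIFR, the receptor of leukemia inhibitory factor (232 and 101 CPM), and the chloride channel CFTR (209 and 95.7 CPM) behaved alike. IGFBP1 (125 and 61.0 CPM), which binds insulin-like growth factors, KDR (61.9 and 34.0 CPM), a VEGF receptor, SLC38A1 (50.4 and 24.6 CPM), a glutamine carrier, and VLDLR (83.9 and 40.7 CPM), a lipoprotein receptor, were high in the same 2 libraries. Endometrium and conceptus RNA were extracted with different reagents, and whether uterine cells or fluid contributed to these libraries was not tested.

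**Figure D3:**
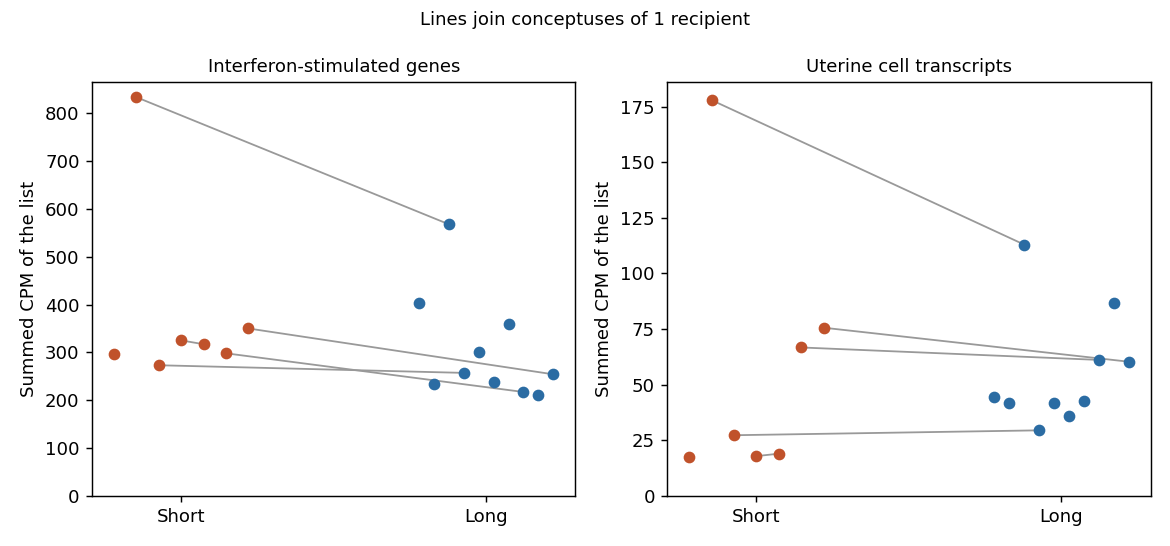
Summed CPM of the interferon-stimulated gene list (left) and of the uterine cell transcript list (right) in each HF conceptus, with lines joining conceptuses of the same recipient. The 2 conceptuses of recipient 825 are the highest in both panels, Short 2 at 834 CPM in the left one and the pair at 178 and 113 CPM in the right one.

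In 2 of the 4 recipients with both sizes, the short and the long conceptus were each other's nearest library. Across 13036 genes whose mean reached 1 CPM, Pearson's r of log2(CPM + 1) had a median of 0.978 over the 5 pairs from the same recipient and 0.949 over the 131 pairs from different ones. These are correlations across genes, which are not independent replicates, and all libraries share the same highly expressed genes. The short conceptus of recipient 825 (3.4 cm) was closer to its long uterus-mate (9 cm, r = 0.985) than to any of the other 15 HF libraries, and the same held in recipient 894 (r = 0.985). In recipients 971 and 985, whose mates lay on different sheets, the long mate ranked 5 and 4 among 16 for the short conceptus (r = 0.962 and 0.955), and the short mate ranked 3 and 11 for the long one. For Long 10 that r of 0.955 lay below its median of 0.966 with the rest. Short 4 and Short 5 of recipient 753 ranked first for each other (r = 0.978). The median r was 0.941 between short conceptuses, 0.964 between long ones and 0.949 between classes.

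**Figure D4:**
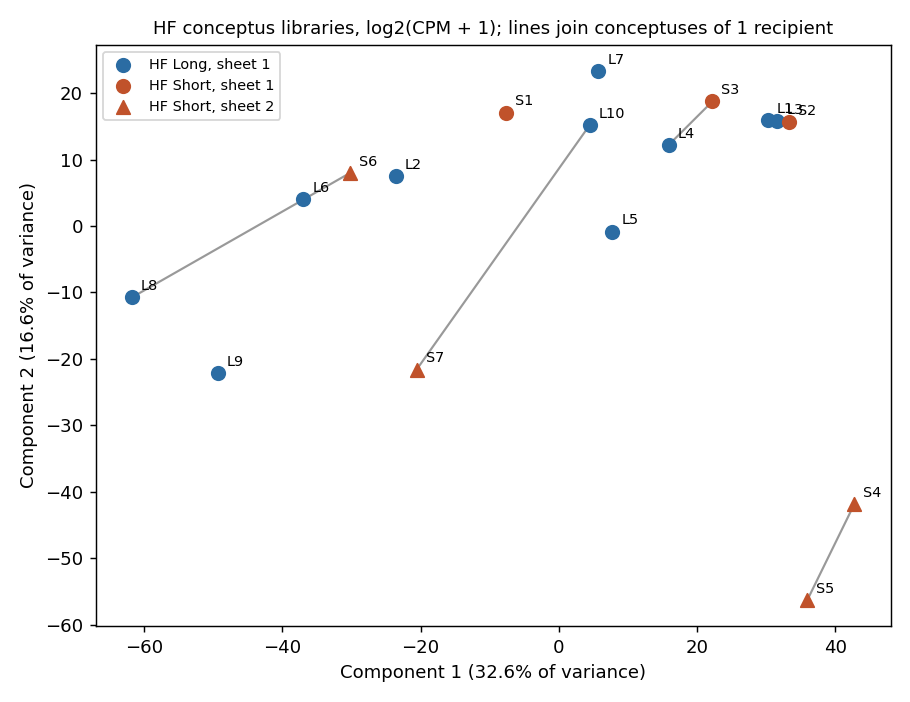
Principal components of log2(CPM + 1) over the 17 HF conceptus libraries (S, Short; L, Long; circles, sheet 1; triangles, sheet 2), with grey lines joining conceptuses of the same recipient. Components 1 and 2 held 32.6% and 16.6% of the variance; Short and Long intermingle along component 1, and Short 4 and 5 lie apart on component 2.

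The spread among short conceptuses was the wider one, given here as a description with no test. The median SD of log2(CPM + 1) per gene was 0.36 in Short and 0.29 in Long, and 70.5% of the 13036 genes had the larger SD in Short. Without the 2 conceptuses of recipient 753 the Short median was 0.32 and that share was 59.6%. The short class also spans both sheets, which the long class does not. Length alone did not align the short conceptuses: Short 4, 5 and 7, of 1.2, 1.5 and 1.3 cm and all on sheet 2, had IFNT2 at 868, 1503 and 14622 CPM and TKDP1 at 2812, 9143 and 22940 CPM. PPP2R5B, a phosphatase subunit chosen after its values were seen, was at 81.4 and 89.1 CPM in Short 4 and 5 and at 2.62 to 6.21 CPM in the 15 other HF libraries.

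Since the naming rule needed called genes and found none, the genes with the smallest p in either direction are given, a choice made after the values were seen. They had at least 5 CPM in the higher class and at least 80% of Short and Long pairs in 1 order. With the sheet term 49 higher and 45 lower genes met these limits at an unadjusted p under 0.05, and without it 176 and 161. GPRC5B, an orphan receptor, was at 33.5, 40.0, 43.6, 45.2, 49.0, 57.7 and 58.4 CPM in Short and at 58.5 to 93.9 CPM in Long (median 72.7). The gap between the highest short and the lowest long conceptus was that between the 2 mates of recipient 894. The gap is given as a value, with no share of all genes without overlap beside it. Its fold change was -0.54 ± 0.16 with the sheet term (adjusted p = 0.93), -0.67 ± 0.14 without it (adjusted p = 0.34) and -0.60 in sheet 1. FKBP9, a prolyl isomerase of the endoplasmic reticulum, was at 22.9 to 39.2 CPM in Short and 28.9 to 66.3 CPM in Long (-0.82 ± 0.20). ODF2, a centriole protein (-0.29 ± 0.10), QSOX1, which forms disulfide bonds (-0.40 ± 0.14), and ADAMTS9, a matrix protease (-0.74 ± 0.23), were further lower estimates. NSDHL (-0.68 ± 0.20) and FDPS (-0.61 ± 0.20), enzymes of cholesterol synthesis, were among the 10 smallest p in this direction.

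On the higher side NCEH1, a cholesterol ester hydrolase, was at 7.91, 8.82, 11.3, 13.4, 13.8, 14.7 and 17.9 CPM in Short and at 3.76 to 9.42 CPM in Long (0.83 ± 0.23, adjusted p = 0.93). It exceeded every long value in 5 of 7 short conceptuses. HIST1H3I, a replication-dependent histone H3 gene, was at 216 to 521.6 CPM in Short and 146 to 306 CPM in Long (0.73 ± 0.22), and was higher in the short mate of all 4 recipients. MRPL32, a mitochondrial ribosomal protein (0.59 ± 0.15), TAF1D, a subunit of the RNA polymerase I initiation complex (0.77 ± 0.23), and MAPKAPK3, a kinase (0.30 ± 0.11), were further higher estimates. Of 31 tested histone genes, a list added after the values were seen, 29 had positive estimates. The median was 0.17 with the sheet term and 0.15 in sheet 1 alone. It was 0.48 without the term and 0.47 with recipients as blocks, a fit that also had no sheet term.

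**Figure D5:**
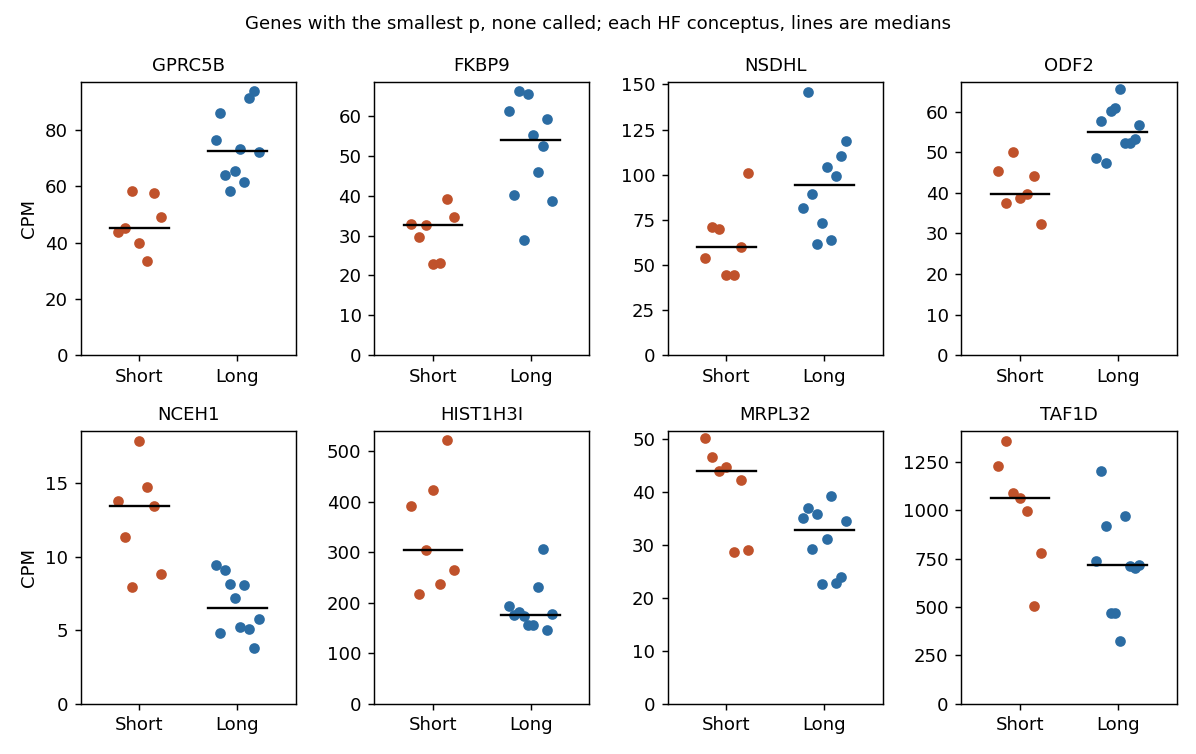
CPM (linear axes from 0) of 8 of the genes named for a small p, in each of the 7 short and 10 long HF conceptuses, 1 dot per library, with lines at the medians. GPRC5B ranged from 33.5 to 58.4 CPM in Short and from 58.5 to 93.9 CPM in Long.

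CNGB3 and NPSR1, chosen after their values were seen, were on in some conceptuses and off in others. CNGB3, a subunit of a cyclic nucleotide-gated channel, was read at most once in any short conceptus and stood at 5.46 to 12.1 CPM in 7 of 10 long ones, being at 0 reads in Long 3, 5 and 8. DESeq2 called it with and without the sheet term (adjusted p = 0.018 and 1.7e-05) and edgeR did not. NPSR1, a neuropeptide receptor, was at 29.5 to 35.3 CPM in 4 long conceptuses (Long 1, 3, 5 and 7) and at no more than 6 reads in any short one. Both genes were also on in part of the SF conceptuses, CNGB3 in 6 of 10 and NPSR1 in 5 of 10 at 1 CPM or more. Without the sheet term DESeq2 also called GPRC5B, ODF2, NCEH1, FKBP9, HIST1H3I, HPGD, NPSR1 and PPP2R5B (adjusted p from 0.0063 to 0.032), and with the term it called none of these 8. Of the 24 genes that DESeq2 called without the sheet term, TRNASTOP-UCA-8, with means of 0.749 CPM in Short and 54.3 CPM in Long, was the other one it called with the term. The 24 also held further tRNA entries, MIR2463 and uncharacterised LOC entries. Among the tRNA entries, TRNAG-CCC-71 and TRNAG-UCC-50 were lower in Short (DESeq2 adjusted p = 0.00013 and 0.00052) and TRNAD-GUC-5 was higher (0.03).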

How the data were processed

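The deposited values were whole-number read counts per gene, made by the authors, in 1 table of 31651 named genes and 52 libraries (1020 empty lines left out). Per the labels' protocols, a stranded mRNA kit was used on conceptus RNA from a column kit. HISAT2, StringTie, edgeR and the build UMD3.1 are listed per the submitters' processing notes, with neither versions nor the strand setting of the counting. Groups came from the size label and columns were matched by title. The sheet was read from the descriptions.

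The 27 conceptus libraries were fitted together with 3 groups and a sheet term: filterByExpr (minimum count 10, minimum total count 15), TMM scaling, edgeR's quasi-likelihood test and Benjamini-Hochberg adjustment, called at an adjusted p under 0.05 (R 4.3.3, edgeR 4.0.16, limma 3.58.1, DESeq2 1.42.0). The test was tried on simulated data. TMM-scaled CPM were then calculated from these counts. The labels do not say whether libraries of 1 group are biologically separate beyond their animal numbers. With recipients taken from titles, the consensus correlation between conceptuses of a recipient was 0.39 (0.30 with the sheet term), and with those from descriptions it was -0.03. The numbers in accession order pair nothing; pairing comes from shared recipients.

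The rule for named genes took called genes at 5 CPM and 80% ordered pairs, 10 each way, and the 2 most abundant members of each list. AFP, HNF4A, TKDP2, PAG12, HAND1, H19, ISG15, MX1, IGFBP1, KDR, SLC38A1 and VLDLR were also named after their values were seen. The members, lists and tests were chosen with earlier results of these data known. Lists also covered immune markers (9 tested, median 0.03), blood markers (2, median -0.57), 2 non-coding RNAs (median -0.28) and Y-linked genes (5, median 1.19), with 0 called. The blood and non-coding medians were 0.95 (1 gene) and 0.13 without Long 8 and 9, the Y-linked one was -0.26 with recipients as blocks and 0.22 in sheet 1, and the immune one was -0.43 in sheet 1. Intervals are at 95%. Precision at this depth covers counting and the spread between these libraries. A few genes that the rule would name are not reported here.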

Additional observations from a re-analysis of the deposited data

Results flagged for a closer look

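Libraries that stood apart from the rest of their class were sought among 71 named genes and 4 library measures, in 150 groups of 7 or 10, and 17 values did so. Chance alone flags about 1 in 20 groups (7.5 of 150), but the genes were not chosen without their values. Of the 17 flags 8 are from IGFBP1, KDR, SLC38A1 and VLDLR, added because the 2 conceptuses of recipient 825 were high in them. The flags of ISG15, MX1, CNGB3 and NPSR1 are also from genes chosen after their values were seen, so the counts are no test. In Short 2 the highest values lay far above the other short conceptuses for ISG15 (15.1 CPM), MX1 (85.8 CPM), MUC16 (127 CPM), IGFBP1 (125 CPM), KDR (61.9 CPM), SLC38A1 (50.4 CPM), VLDLR (83.9 CPM) and NPSR1 (0.184 CPM, 6 reads). In Long 3, its uterus-mate, they lay apart for MUC16 (60.1 CPM), IGFBP1 (61.0 CPM), KDR (34.0 CPM), SLC38A1 (24.6 CPM), VLDLR (40.7 CPM) and POU5F1 (4.88 CPM). Short 7, of 1.3 cm, was the highest short conceptus for HMGCS1 (1040 CPM) and SLC2A3 (4170 CPM). In Short 3 a single read of CNGB3 (0.0295 CPM) stood apart from 0 in the other short conceptuses.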

How the results depend on the processing

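For HF Short against HF Long the count of 0 called genes was the same in 37 of 38 alternatives to the fit with the sheet term, 28 of 29 without it and 17 of 18 in sheet 1. The exception was DESeq2 each time, with 2, 24 and 1 genes called. Leaving out each HF library in turn gave 0 to 0 calls in all 3 fits, with 398 to 943, 632 to 1831 and 446 to 1116 genes at an unadjusted p under 0.05. In the 3 full fits the numbers expected by chance at that value were 816.5, 816.5 and 808.4. The recipient was also fitted as a replicate block over the 17 HF libraries, with no sheet term. There 0 genes were called and 438 were at an unadjusted p under 0.05. With groups by description 0 were called (1583 at that unadjusted p). The calls of sheet 2 against sheet 1 went from 817 to 1523 with DESeq2. Alternatives that left out Long 8 and 9, Short 4 and 5, Long 1 and 9, or Short 2 and Long 3, and the Y-linked covariate, were chosen after seeing the data. In sheet 1 alone the differences in library measures stayed uncalled, and that in the share of the 10 most abundant genes shrank from -1.70 to -0.257 percentage points. Over the named genes and all alternatives, 7278 values stayed on their side of the threshold or within the spread, 390 moved and 10 became called.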
